A study of Mus musculus with 8 samples.

Results

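The genes described here encode the chains of the collagens. They were taken by symbol from the array annotation, as every gene whose single symbol reads Col, digits, a, digits. This gave 42 of the 18193 genes measured, and 82 probe sets, of which the one with the highest mean over all 8 arrays stood for each gene. No filter on low signal was applied, so every member was tested.

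The arrays measured RNA of the choroid plexus of the fourth ventricle from mouse embryos at embryonic day 13. There were 4 arrays labelled as Otx2 knockout, from a published Otx2-deficient strain, and 4 labelled as wildtype, from the same litters. All embryos were on a mixed background, none was treated, and sex was not determined. The labels call each array a biological replicate and do not give the Otx2 allele, a Cre driver or the number of embryos per sample, so the knockout as a model is known only by its label. The transcript targeted did not fall. Otx2 read 12.38, 12.46, 12.44 and 12.48 log2 units in the knockout-labelled arrays and 12.00, 12.05, 11.97 and 11.85 in the wildtype arrays, a difference of 0.47 (SE 0.06, limma adjusted p = 0.000648). No label places these probes inside or outside the deletion, so each direction below rests on the labels and the arrays are called knockout-labelled.

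Collagens are proteins of the extracellular matrix built as triple helices of chains with glycine at regular steps along each chain. Fibrillar collagens form the fibres of connective tissue, type IV forms the sheet of basement membranes, type VI forms beaded filaments, type VIII forms short-chain networks, and the fibril-associated collagens coat fibres. In the choroid plexus, fibroblasts of the stroma lie between capillaries and a secretory epithelium that rests on its own basement membrane. Type IV has 6 chains that assemble in set combinations. The ubiquitous one uses the products of Col4a1 and Col4a2, and another, best known from kidney glomerulus, cochlea and eye, uses those of Col4a3, Col4a4 and Col4a5.

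The tissue label was checked against its markers. Higher and lower mean passing at a limma adjusted p under 0.05, as 7.84% and 11.7% of all genes did. Ttr, the thyroid hormone carrier of choroid plexus epithelium, lay between 14.14 and 14.27 log2 units on every array. Of 13 measured epithelial markers 11 were lower and 1, Otx2, was higher in the knockout-labelled arrays, and the mean log2 level of the list was 10.12 to 10.39 against 11.15 to 11.29. Of 15 measured markers of mesenchyme and fibroblasts 9 were higher and 0 lower, and their list mean was 8.40 to 8.62 against 7.79 to 7.98. Macrophage markers were higher in 9 of 12, with list means of 9.27 to 9.74 against 8.66 to 8.86. Of 10 mural cell markers 3 were higher and 2 lower, at 8.38 to 8.61 against 8.29 to 8.37, and of 12 endothelial markers 1 was higher and 3 lower, at 8.59 to 8.83 against 8.75 to 8.95. That is 30% and 20% of the mural list, and 8.33% and 25% of the endothelial list, where the share higher lay close to that of all genes. In bulk tissue, fewer cells of a type and less RNA per cell cannot be told apart, and the part of these shifts in the collagen values was not tested.

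Of the 42 collagen chain genes, 17 rose, 5 fell and 20 did not pass the test. A gene passed where limma gave a Benjamini-Hochberg adjusted p under 0.05 over all 18193 genes, and every adjusted p below comes from that fit. Over all genes, 19.6% passed, 7.84% as higher and 11.7% as lower. The members' share of 40.5% higher lay above that background, and their share of 11.9% lower lay close to it. Bright genes passed more often. Above the median level of all genes, 51.7% of 29 members were higher and 10.3% lower, against 11.5% and 16.8% of all such genes. At or under it, 15.4% of 13 members were higher and 15.4% lower, against 4.22% and 6.62%. In 25 of the 42 members the groups did not overlap, a larger share than the 24.3% of all genes. In 20 of the 42 every knockout-labelled array lay above every wildtype array, a larger share than the 9.98% of all genes. In 5 of the 42 every knockout-labelled array lay below, a smaller share than the 14.4% of all genes. The median log2 fold change, always knockout-labelled minus wildtype, was 0.27 over the 42 members and 0.00 over all genes.

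**Figure D1:**
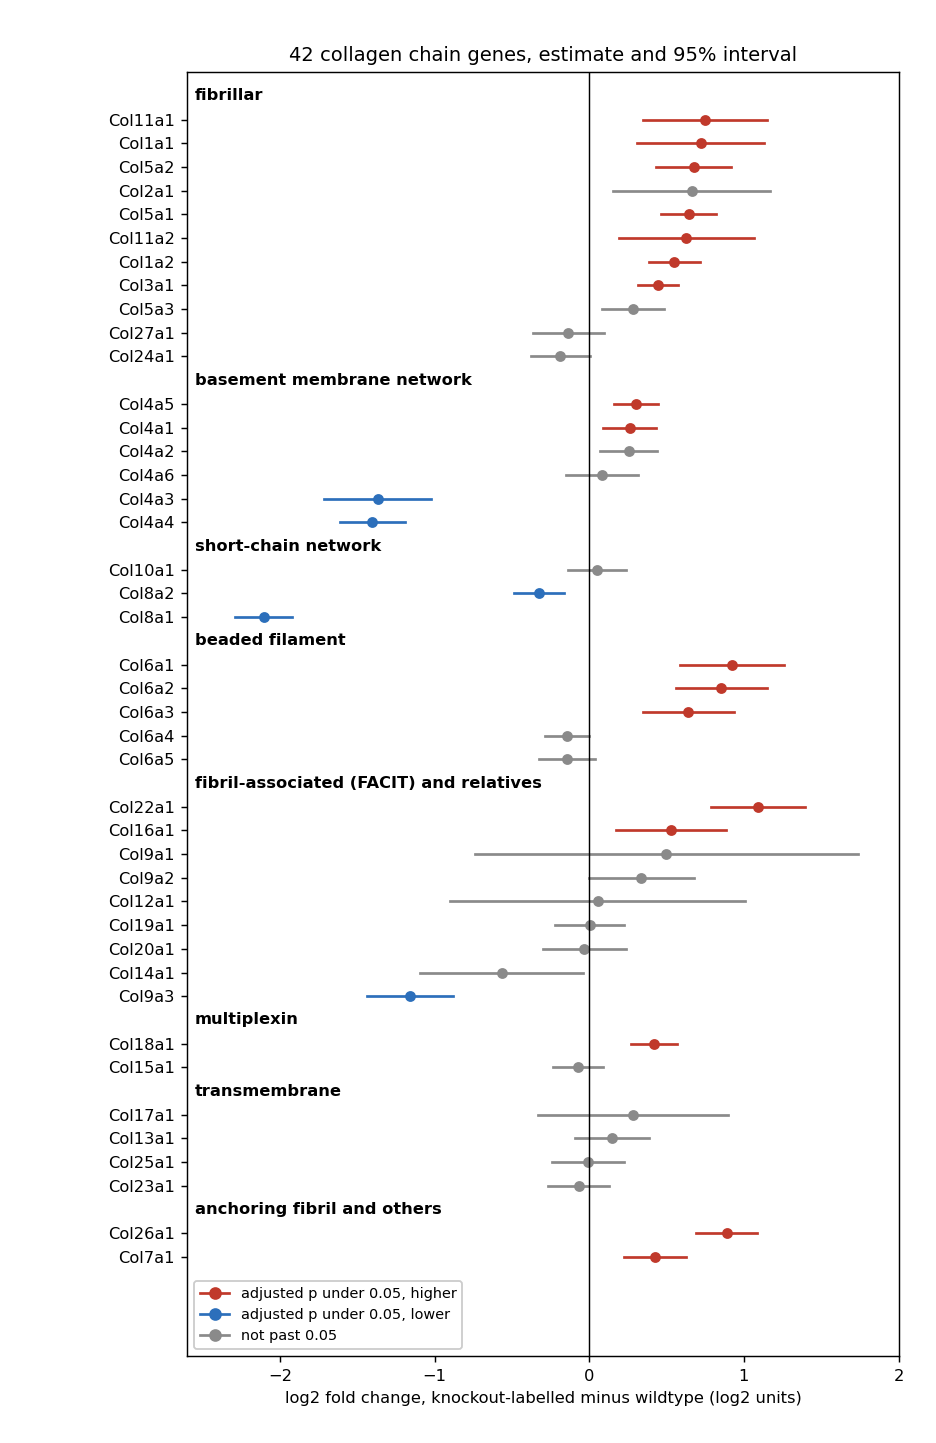
Log2 fold change of each of the 42 collagen chain genes (knockout-labelled minus wildtype, horizontal axis in log2 units) by structural class, with the 95% interval from the limma fit. The 17 genes that rose lie between 0.26 and 1.09, and the 5 that fell, Col8a1, Col4a4, Col4a3, Col9a3 and Col8a2, lie between -2.11 and -0.32.

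Start sites of 33 of the 42 members are in the RefSeq promoter table (GRCm38.p6), with 36 windows. The 250 bases before the start of 4 members are shown because they belong to the largest fall and its partner chain, Col8a1 and Col8a2, and to a pair of fibrillar risers that differ in base composition, Col1a2 and Col3a1. They run 5′ to 3′ on the gene's strand and end at the base before the start. Capitals mark matches on either strand to GGGCGG (the GC box), CCAAT (the CCAAT box), TATAAA (the TATA box) or TAATCC (the core letters bound by bicoid-type homeodomains, the class of Otx2).
Col8a1, chr16:57754738-57754987, minus strand: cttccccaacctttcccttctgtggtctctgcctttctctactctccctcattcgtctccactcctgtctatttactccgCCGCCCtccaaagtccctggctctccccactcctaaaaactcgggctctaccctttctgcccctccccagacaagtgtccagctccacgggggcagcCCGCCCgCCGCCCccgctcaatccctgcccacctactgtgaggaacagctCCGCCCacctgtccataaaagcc
Col8a2, chr4:126286544-126286793, plus strand: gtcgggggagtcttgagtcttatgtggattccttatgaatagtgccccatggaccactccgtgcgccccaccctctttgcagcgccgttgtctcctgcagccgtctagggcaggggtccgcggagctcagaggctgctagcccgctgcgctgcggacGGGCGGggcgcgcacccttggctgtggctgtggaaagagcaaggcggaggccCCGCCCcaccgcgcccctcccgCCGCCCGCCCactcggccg
Col1a2, chr6:4505368-4505617, plus strand: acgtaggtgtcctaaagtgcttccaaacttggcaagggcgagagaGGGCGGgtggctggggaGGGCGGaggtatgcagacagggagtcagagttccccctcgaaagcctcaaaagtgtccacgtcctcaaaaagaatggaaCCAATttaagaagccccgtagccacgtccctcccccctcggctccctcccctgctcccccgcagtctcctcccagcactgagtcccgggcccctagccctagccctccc
Col3a1, chr1:45311288-45311537, plus strand: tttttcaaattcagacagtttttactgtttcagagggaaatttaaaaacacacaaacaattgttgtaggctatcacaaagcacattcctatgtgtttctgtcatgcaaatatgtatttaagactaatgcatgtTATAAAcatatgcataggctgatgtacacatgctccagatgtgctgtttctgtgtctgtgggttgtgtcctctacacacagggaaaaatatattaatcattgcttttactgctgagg

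The Col8a1 window held 4 GC boxes and had a GC content of 60.8%. The Col8a2 window also held 4 GC boxes, of which the last 2 overlap, and its GC content was 70.0%. Col1a2 had 2 GC boxes and a CCAAT box 109 bases before the start, at 62.0% GC. Col3a1 had a TATAAA match 117 bases before the start and 35.2% GC. None of the 36 member windows held TAATCC, which was present in 6.25% of all 32851 windows of that length. That says only that these letters are not in these windows. GGGCGG was in 58.3% of the member windows against 32.7% of all windows, CCAAT in 36.1% against 33.8% and TATAAA in 13.9% against 12.4%. The median GC content was 59.0% in the member windows and 52.4% in all.

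Type VIII collagen gave the largest fall. Its chains form hexagonal networks beneath endothelia and epithelia, among them the corneal endothelium. Col8a1 read 8.89, 8.66, 8.54 and 8.83 log2 units in the knockout-labelled arrays and 10.82, 10.89, 10.79 and 10.83 in the wildtype arrays. The wildtype arrays lay close together and the groups were far apart. This was 4.30-fold lower (log2 fold change -2.11, SE 0.08, adjusted p = 1.38e-06). Its other probe sets, fitted with all probe sets that have 1 gene, changed by -2.05 and -1.20. Col8a2, the partner chain, read 11.34, 11.50, 11.59 and 11.41 against 11.69, 11.85, 11.79 and 11.80. Its groups did not overlap either, but the fall was 1.25-fold (log2 fold change -0.32, adjusted p = 0.0113). Within each array, Col8a1 lost 1.78 log2 units relative to Col8a2 (exact permutation p = 0.0286, the smallest that 4 against 4 arrays can give, two-sided, and 0.0762 after adjustment over 16 chain pairs). The related Col10a1, the collagen of hypertrophic cartilage, was measured at 5.02 ± 0.09 and 4.97 ± 0.15 (SD, n = 4 each), which did not pass (adjusted p = 0.763).

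The 6 chains of type IV split. Col4a3 read 5.45, 6.01, 6.27 and 6.16 log2 units in the knockout-labelled arrays and 7.39, 7.27, 7.34 and 7.38 in the wildtype arrays. That is 2.58-fold lower (log2 fold change -1.37, SE 0.15, adjusted p = 0.00027). Replicate 1 of the knockout-labelled group was the lowest and the wildtype arrays lay together. Col4a4 read 6.04, 6.10, 6.45 and 6.28 against 7.67, 7.64, 7.52 and 7.65, or 2.65-fold lower (log2 fold change -1.40, SE 0.09, adjusted p = 1.66e-05). A further probe set of Col4a3 changed by -0.81, and those of Col4a4 by -1.39 and -0.63. These genes are neighbours on chromosome 1 and are transcribed away from each other. Their change differed by 0.03 within arrays, less than the spread between arrays (exact permutation p = 0.886, adjusted p = 0.971).

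Col4a5, whose product joins the chains of Col4a3 and Col4a4, rose. It read 10.47, 10.30, 10.39 and 10.28 against 10.06, 10.13, 10.03 and 10.01, with no overlap (log2 fold change 0.30, SE 0.06, adjusted p = 0.00938). Its dimmer probe set, at a difference of 0.14, did not pass (adjusted p = 0.363 over all probe sets), and the mean of both lost the call. Col4a4 lost 1.71 log2 units relative to Col4a5 within arrays (exact permutation p = 0.0286, adjusted p = 0.0762). Col4a6, the neighbour of Col4a5 on chromosome X and its partner in another trimer, did not pass, at 7.49 ± 0.20 against 7.41 ± 0.11 (adjusted p = 0.676, 95% interval of the log2 difference -0.15 to 0.31). Its second probe set, equally bright, gave a difference of 0.30 that did not pass over all probe sets either (adjusted p = 0.0561).

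The ubiquitous pair gave small differences near the threshold. Col4a1 read 12.31, 12.20, 12.32 and 12.13 against 12.00, 12.13, 11.86 and 11.92, a log2 fold change of 0.26 with an adjusted p of 0.0414. Its lowest knockout-labelled array lay just above the highest wildtype array, and the call was lost with the replicate block (adjusted p = 0.0632), with array weights (0.0653), with the mean of its probe sets (0.0584) and with arrays centred on their medians (0.0703). Leaving out single arrays ended it in 5 of 8 fits, at adjusted p-values of up to 0.113. Its dimmer probe set, at 0.24, did not pass over all probe sets (adjusted p = 0.113). The arrays whose removal ended the call were replicates 1 and 3 of the knockout-labelled group and 1, 3 and 4 of the wildtype group. Col4a2, its neighbour on chromosome 8, gave 11.42 ± 0.09 against 11.16 ± 0.14, also 0.26, and did not pass (adjusted p = 0.0569). It passed with a trended robust prior (0.0194), with dim genes left out (0.0254), with quantile normalization once more (0.0353) and without wildtype replicate 2 (0.0263). The difference between the 2 chains changed by 0.01 within arrays (exact permutation p = 0.971, adjusted p = 0.971).

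**Figure D2:**
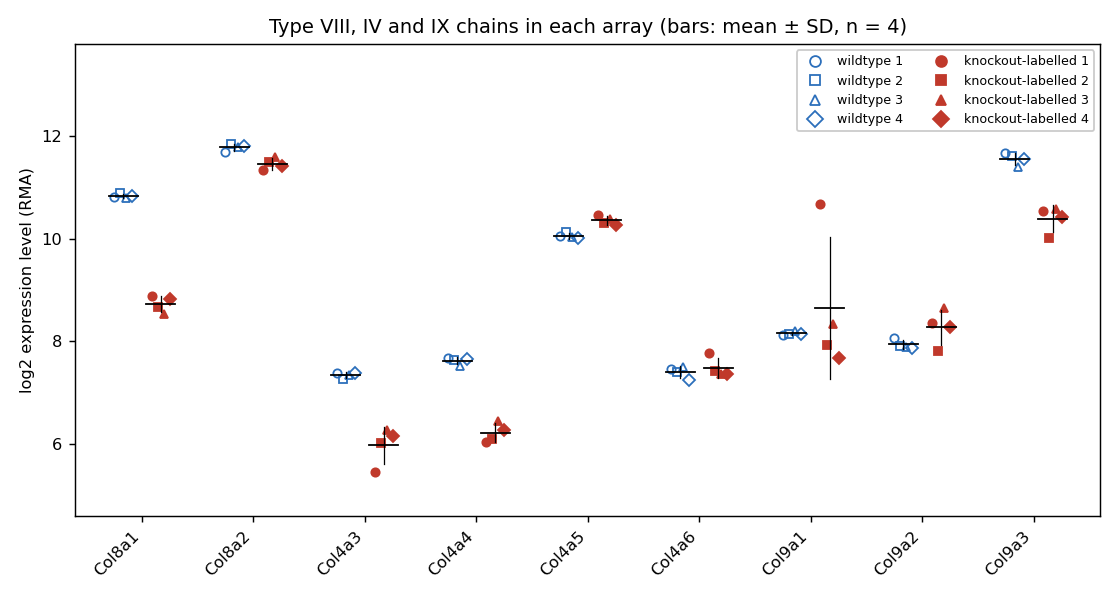
Log2 expression level of the type VIII, IV and IX chains in each of the 8 arrays (open blue, wildtype; filled red, knockout-labelled; the marker shape gives the replicate number), with the mean and SD of 4 arrays. Col8a1, Col4a3, Col4a4 and Col9a3 lie lower in all 4 knockout-labelled arrays, and Col9a1 reads 10.68 in knockout-labelled replicate 1 only.

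Type IX collagen, a fibril-associated collagen of cartilage and the vitreous, has 3 chains. Col9a3 read 10.55, 10.02, 10.59 and 10.43 log2 units in the knockout-labelled arrays and 11.67, 11.61, 11.40 and 11.55 in the wildtype arrays. The groups were well apart, and the level was 2.24-fold lower (log2 fold change -1.16, SE 0.12, adjusted p = 0.000194). Further probe sets of Col9a3 changed by -1.15 and -0.38. Col9a2 did not pass, at 8.28 ± 0.34 against 7.94 ± 0.09 (adjusted p = 0.161, against 0.0292 with array weights and 0.00811, at a log2 fold change of 0.49, without knockout-labelled replicate 2). Col9a1 read 10.68, 7.92, 8.34 and 7.68 against 8.13, 8.15, 8.20 and 8.15. Its log2 fold change of 0.50 (adjusted p = 0.613) rested on knockout-labelled replicate 1, without which it was -0.18 (adjusted p = 0.475). Within arrays, Col9a2 minus Col9a3 was higher in all 4 knockout-labelled arrays than in any wildtype array (exact permutation p = 0.0286, adjusted p = 0.0762).

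Fibrillar collagens are the largest class here. Of 11 measured chains 7 rose, 0 fell and 4 did not pass, with a median log2 fold change of 0.63. That is 63.6% higher and 0% lower, against 7.84% and 11.7% of all genes. Col1a2, a chain of the main fibre collagen of skin, bone and stroma, read 13.34, 13.10, 13.30 and 13.16 log2 units against 12.68, 12.75, 12.69 and 12.58 in the wildtype arrays. All its knockout-labelled arrays were higher, by 0.55 on average (SE 0.07, adjusted p = 0.000691). Its dimmer probe sets rose by more, 0.65 and 1.02 (adjusted p = 0.00161 and 0.0309 over all probe sets). Col1a1, the partner chain, read 11.53, 10.73, 11.08 and 10.73 against 10.13, 10.54, 10.45 and 10.08, with no overlap. Its log2 fold change was 0.72 (SE 0.18, adjusted p = 0.022). Leaving out knockout-labelled replicate 3 raised the adjusted p to 0.0524, and leaving out wildtype replicate 1 or 4 raised it to 0.0553 or 0.0667. A second probe set of Col1a1 changed by 0.89. On the chosen probe sets, the 2 chains of type I did not differ in their change beyond the spread between arrays (difference 0.17, exact permutation p = 0.400, adjusted p = 0.582).

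Col3a1, which forms fine fibres with type I in distensible tissues, read 13.40, 13.31, 13.42 and 13.29 log2 units against 12.87, 12.95, 12.92 and 12.89. The groups were tight and apart, 0.45 log2 units from each other (SE 0.06, adjusted p = 0.000567). Its dimmer probe set changed by 0.74, and the reason for the larger change was not tested. The chains of type V set the diameter of type I fibres. Col5a1 read 10.25, 10.07, 10.29 and 10.01 against 9.56, 9.59, 9.44 and 9.46, a rise of 0.64 log2 units (SE 0.08, adjusted p = 0.000426). Its other probe sets rose by 0.30 and 0.29. Col5a2, the neighbour of Col3a1 on chromosome 1, read 11.44, 10.90, 11.12 and 11.00 against 10.36, 10.50, 10.46 and 10.44, a rise of 0.67 (SE 0.11, adjusted p = 0.00199), and its second probe set rose by 0.71. Both chains were higher in 4 of 4 knockout-labelled arrays than in any wildtype array. Col5a3, a less common chain, was at 5.99 ± 0.13 against 5.71 ± 0.13 (adjusted p = 0.0525), and passed with the replicate block (adjusted p = 0.0292), with array weights (0.0278) and without knockout-labelled replicate 2 (0.0482).

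Types II and XI are the fibrillar collagens of cartilage and are also made by early neuroepithelium and meninges. Col11a1 read 9.40, 8.43, 8.95 and 8.70 log2 units against 8.01, 8.25, 8.21 and 8.03, a rise of 0.75 (SE 0.18, adjusted p = 0.0166). Its second probe set, at 0.70, did not pass over all probe sets (adjusted p = 0.0922). Col11a2 read 6.72, 5.69, 6.06 and 5.90 against 5.61, 5.30, 5.58 and 5.35, a rise of 0.63 (SE 0.19) at an adjusted p of 0.0495. In both, knockout-labelled replicate 1 was the highest array and replicate 2 lay closest to the wildtype arrays. Col11a2 did not pass in 6 of 8 leave-one-out fits, all but those leaving out knockout-labelled replicate 1 or 2, with an adjusted p of up to 0.124. Nor did it pass with centred arrays (0.0564), a further quantile normalization (0.0596) or in the fit on means of probe sets (0.0512). Without knockout-labelled replicate 1 its log2 fold change was 0.42 (adjusted p = 0.0438) and that of Col11a1 0.57 (adjusted p = 0.0185). Col2a1 read 11.03, 9.84, 10.01 and 10.08 against 9.79, 9.49, 9.53 and 9.51. Its groups did not overlap, yet its log2 fold change of 0.66 did not pass (adjusted p = 0.0713). It passed with the replicate block (adjusted p = 0.0243), with array weights (0.0282), with dim genes left out (0.0392), and without knockout-labelled replicate 1, where the log2 fold change was 0.40 (adjusted p = 0.026). Without knockout-labelled replicate 2 it was 0.80 (adjusted p = 0.0353).

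The remaining fibrillar chains, Col24a1 and Col27a1, had log2 fold changes of -0.19 and -0.14 and did not pass (adjusted p = 0.175 and 0.432). They belong to a branch of the fibrillar family found in developing bone and cartilage.

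**Figure D3:**
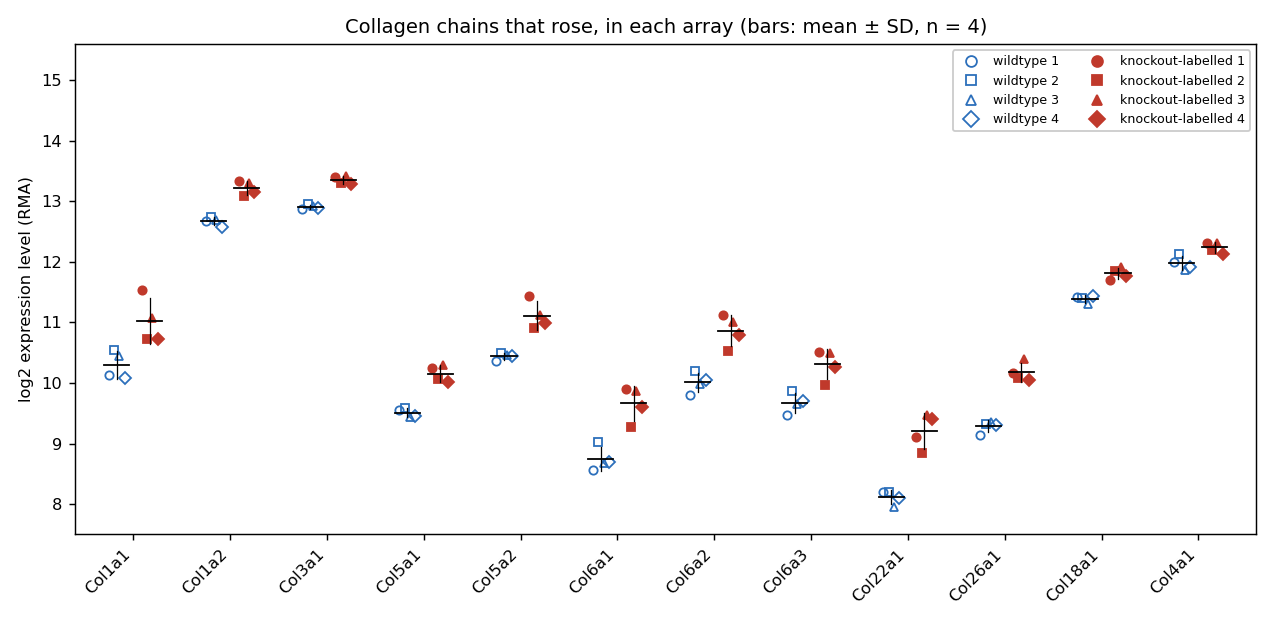
Log2 expression level of 12 collagen chains that rose, in each of the 8 arrays (open blue, wildtype; filled red, knockout-labelled; the marker shape gives the replicate number), with the mean and SD of 4 arrays. In each of them the 4 knockout-labelled arrays lie above the 4 wildtype arrays, by the narrowest margin in Col4a1, Col6a3 and Col1a1.

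Type VI collagen, the beaded filament between basement membrane and stroma, rose in its 3 main chains. Col6a1 read 9.91, 9.27, 9.87 and 9.60 log2 units in the knockout-labelled arrays and 8.57, 9.03, 8.68 and 8.69 in the wildtype arrays. This was 1.90-fold higher (SE 0.15 log2, adjusted p = 0.00212). Col6a2, its neighbour on chromosome 10, read 11.12, 10.53, 11.01 and 10.79 against 9.81, 10.20, 9.98 and 10.05, or 1.81-fold higher (SE 0.13 log2, adjusted p = 0.0016), and its second probe set rose by 0.86. Col6a3, the longest of the chains and encoded on another chromosome, read 10.51, 9.97, 10.50 and 10.26 against 9.47, 9.87, 9.65 and 9.70, or 1.56-fold higher (SE 0.13 log2, adjusted p = 0.00733). In each chain knockout-labelled replicate 2 was the lowest of its group and wildtype replicate 2 the highest of its own. Within arrays Col6a3 rose less than Col6a1 by 0.28 and less than Col6a2 by 0.21 (exact permutation p = 0.0286 each, adjusted p = 0.0762), while Col6a1 and Col6a2 differed by 0.07 (exact permutation p = 0.229, adjusted p = 0.406). The permutation covers the spread between arrays and not unlike responses of probe sets, and Col6a1 and Col6a3 have 1 probe set each. Probe sets of 1 gene differed by as much in Col5a1, at 0.64, 0.30 and 0.29. The later-found chains Col6a4 and Col6a5 both had a log2 fold change of -0.14 and did not pass (adjusted p = 0.158 and 0.263).

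Among the 9 fibril-associated collagens and their relatives 2 rose, 1 fell and 6 did not pass. Col22a1, a collagen of tissue junctions such as that between muscle and tendon, had the largest rise of all members. It read 9.11, 8.84, 9.48 and 9.40 log2 units against 8.20, 8.20, 7.95 and 8.10, or 2.13-fold higher (log2 fold change 1.09, SE 0.14, adjusted p = 0.000446). A second probe set rose by 0.98, and the dimmest, at 0.25, did not pass. Col16a1, which is found near fibrils and at basement membranes, read 8.69, 7.83, 8.39 and 8.12 against 7.62, 7.74, 7.79 and 7.77. Its rise of 0.53 (SE 0.16, adjusted p = 0.0429) had replicate 2 just above the wildtype arrays. The call was lost with the replicate block (adjusted p = 0.0569) and with centred arrays (0.0533). Of the leave-one-out fits only the one lacking knockout-labelled replicate 2 kept it, and the highest adjusted p was 0.0998.

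Col12a1 and Col14a1 coat type I fibres. Col12a1 read 9.08, 6.78, 7.45 and 7.28 against 7.45, 8.02, 7.74 and 7.17. It did not pass (adjusted p = 0.956), and its log2 fold change of 0.05 became -0.42 without knockout-labelled replicate 1 (adjusted p = 0.267). Col14a1 read 8.81, 7.97, 8.25 and 7.45 against 8.78, 8.59, 8.58 and 8.79, a log2 fold change of -0.57 that did not pass (adjusted p = 0.132). It passed without knockout-labelled replicate 1 (-0.80, adjusted p = 0.0155), and its second probe set, at 7.39 ± 0.31 in the knockout-labelled arrays, passed over all probe sets (-0.61, adjusted p = 0.0132). The mean of its probe sets passed too (-0.44, adjusted p = 0.0373). Neither Col19a1, at 4.50 ± 0.13 against 4.50 ± 0.17, nor Col20a1, at 5.94 ± 0.27 against 5.97 ± 0.04, passed (adjusted p = 0.994 and 0.898).

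Col2a1, Col9a1, Col11a1, Col11a2 and Col12a1 were highest in knockout-labelled replicate 1. So were chains that are not of the cartilage type, among them Col1a1, Col1a2, Col5a2, Col6a1, Col6a2, Col6a3 and Col16a1. Within its group this array was the highest for 22 of the 42 members. The cartilage chains Col9a2, Col9a3 and Col10a1 were not highest in this array. Of the 11 measured cartilage markers 8 had their highest value in the same array and 3, Sox9, Comp and Snorc, did not. Cnmd, the cartilage protein chondromodulin, read 9.86, 6.38, 8.07 and 7.22 log2 units in the knockout-labelled arrays and 5.45 to 6.14 in the wildtype arrays. Matn4, a matrilin, read 8.76 in replicate 1 and 6.00 to 6.39 in the other knockout-labelled arrays, and Epyc, a proteoglycan of growth cartilage, read 8.24 against 5.71 to 5.94. Acan, the main cartilage proteoglycan, read 6.32 against 5.20 to 5.70, and Matn3 and Matn1, further matrilins, read 5.33 and 3.92. Hapln1, a link protein, read 6.81 there and was higher in all 4 knockout-labelled arrays (log2 fold change 1.11, adjusted p = 0.000552). Chad, at 4.41, was barely above the other arrays, and Comp, at 4.30, and Snorc, at 5.09, lay within their range. Sox9, the regulator of cartilage formation, read 9.20, 9.18, 9.18 and 9.39 against 9.70, 9.63, 9.51 and 9.55, and fell (log2 fold change -0.36, adjusted p = 0.00698). The mean of the 11 cartilage markers was 6.57 in that array, 5.56 to 5.69 in the others of its group and 5.36 to 5.60 in the wildtype arrays. Over the groups 2 of the 11 rose, 1 fell and 8 did not pass, or 18.2% higher and 9.09% lower, against 7.84% and 11.7% of all genes. Without replicate 1 the number of collagen genes that rose was 16 and the number that fell was 6. The bone marker list, of 5 measured genes, was at 4.73 to 4.94 in the knockout-labelled and 4.74 to 4.88 in the wildtype arrays. Skeletal muscle markers had their highest list mean, 7.05, in knockout-labelled replicate 2, against 4.86 to 5.86 in the others of its group and 4.70 to 5.29 in the wildtype arrays. Without replicate 2, 20 collagen genes rose and 5 fell.

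**Figure D4:**
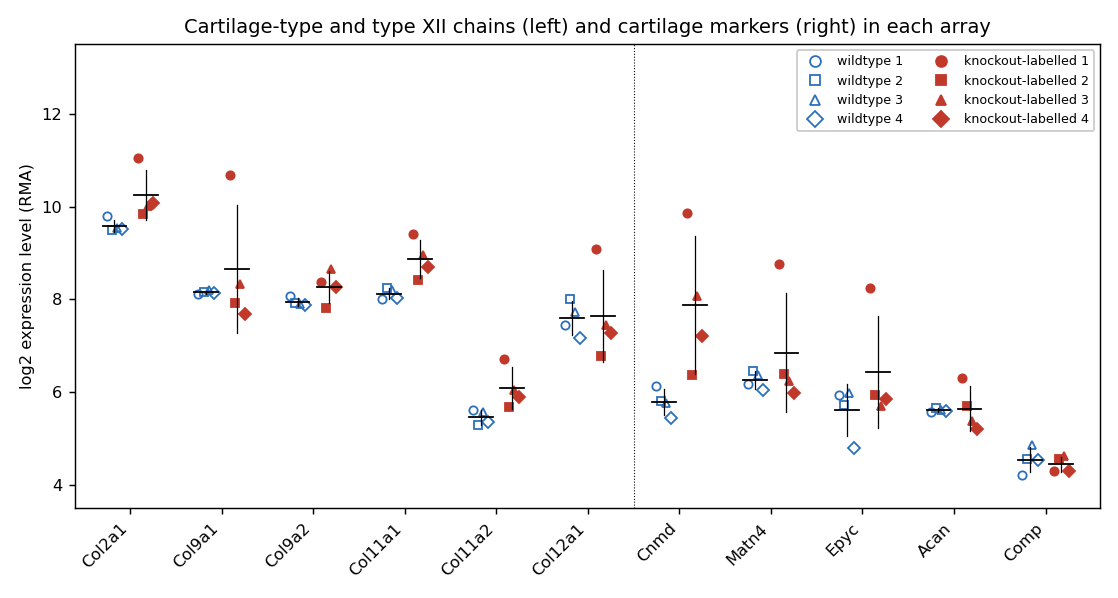
Log2 expression level of cartilage-type collagen chains and Col12a1 (left of the dotted line) and of 5 cartilage markers (right) in each array (open blue, wildtype; filled red, knockout-labelled; marker shape, replicate number), with the mean and SD of 4 arrays. Knockout-labelled replicate 1, the filled circle, is the highest array for Col2a1, Col9a1, Col11a1, Col11a2, Col12a1, Cnmd, Matn4, Epyc and Acan, and not for Col9a2 or Comp.

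Of the multiplexins, basement membrane collagens that carry sugar chains, Col18a1 rose and Col15a1 did not pass. Col18a1, the precursor of endostatin, read 11.70, 11.84, 11.92 and 11.77 log2 units against 11.42, 11.40, 11.30 and 11.43. The groups were apart by a rise of 0.42 (SE 0.07, adjusted p = 0.00177), and its second probe set rose by 0.34. Col15a1, known from vascular basement membranes, was at 8.04 ± 0.05 against 8.12 ± 0.12 (adjusted p = 0.557, 95% interval of the log2 difference -0.23 to 0.09).

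Of the 4 transmembrane collagens none passed in the limma fit, nor at an unadjusted p under 0.05. These chains sit in the plasma membrane with their helix outside the cell. Their log2 fold changes were 0.15 for Col13a1 (adjusted p = 0.409), 0.28 for Col17a1 of hemidesmosomes (0.558), -0.07 for Col23a1 (0.675) and -0.01 for the neuronal Col25a1 (0.967). A dimmer probe set of Col23a1, at 9.20 ± 0.17 against 8.87 ± 0.10, passed over all probe sets (0.33, adjusted p = 0.041).

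The last class holds unlike genes. Col26a1, a short collagen first described in testis and ovary, read 10.17, 10.09, 10.40 and 10.05 log2 units against 9.15, 9.32, 9.36 and 9.31. It was 1.85-fold higher with no overlap (log2 fold change 0.89, SE 0.09, adjusted p = 0.000123). Its only other probe set, at 3.79 ± 0.13 against 3.62 ± 0.16, did not pass. Col7a1, the chain of anchoring fibrils under stratified epithelia, was at 6.43 ± 0.16 against 6.00 ± 0.09 and rose by 0.43 (SE 0.09, adjusted p = 0.00839).

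**Figure D5:**
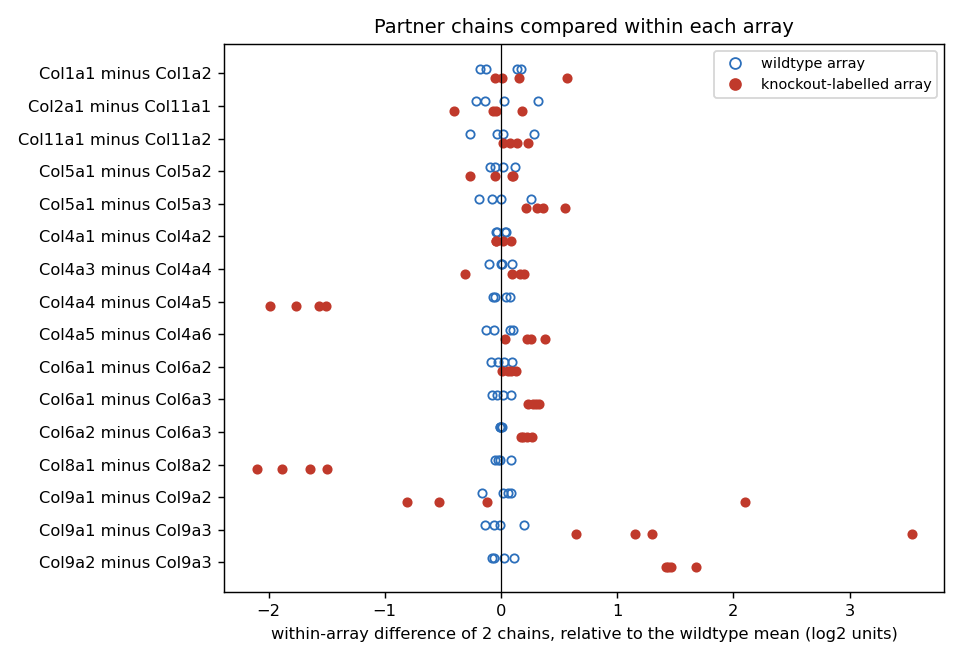
Difference between the log2 levels of 2 chains within each array, set to 0 at the wildtype mean, for 16 pairs that share a trimer or a fibre (horizontal axis in log2 units; open blue, wildtype; filled red, knockout-labelled). For Col8a1 minus Col8a2, Col4a4 minus Col4a5, Col6a1 minus Col6a3, Col6a2 minus Col6a3, Col9a1 minus Col9a3 and Col9a2 minus Col9a3 the groups do not overlap.

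Of the 16 chain pairs compared, 6 had a group difference with an exact permutation p of 0.0286, the smallest possible, and 0 passed after adjustment over the 16 (adjusted p = 0.0762 for each of the 6). With 4 against 4 arrays, pairs at the smallest p pass this adjustment only where most of the 16 reach it. However far apart its groups, a pair alone cannot pass, so the 0 does not show that the chains of a pair changed alike. The 16 pairs were written down with the single-gene results known. In the sixth of them, Col9a1 minus Col9a3, the difference of 1.66 was widest in knockout-labelled replicate 1. Of 7 sets of adjacent members in the reference gene table, Col3a1 with Col5a2 and Col6a2 with Col6a1 both rose, Col4a4 with Col4a3 both fell, and in the other 4 at most 1 gene passed.

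The spread between arrays was larger in the knockout-labelled group. The SD over 4 arrays was the larger there in 33 of 42 members, with a median of 0.19 against 0.12 log2 units, and in 63.6% of all genes. Within its group, knockout-labelled replicate 1 was the highest array for 22 members and replicate 3 for 17, and replicate 2 was the lowest for 16. Differences between the beta-actin control probe sets of the transcript's ends, a sign of RNA quality, were 0.22 to 0.39 in the knockout-labelled arrays and 0.21 to 0.29 in the wildtype arrays. Those of Gapdh were 0.022 to 0.182 and 0.004 to 0.067. Both controls were highest in knockout-labelled replicate 3.

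Genes that make and process collagen include the hydroxylases, chaperones, proteases and cross-linking enzymes. Of 32 measured members of the list 9 rose, 4 fell and 19 did not pass. That is 28.1% higher against 7.84% of all genes, and 12.5% lower, close to the 11.7% of all genes, with a median log2 fold change of 0.10 beside 0.00 over all genes. Adamts3, a protease that removes the amino-terminal propeptide, rose from 7.36 ± 0.11 to 8.87 ± 0.38, and Lox, which starts the cross-linking of fibres, from 8.52 ± 0.28 to 9.84 ± 0.27 (adjusted p = 0.000229 and 0.000426). P3h2, a prolyl hydroxylase with a preference for type IV, rose by 0.70 (adjusted p = 0.00102) and Plod2, a lysyl hydroxylase, by 0.53 (adjusted p = 0.00111). P3h3 rose by 0.34 and the glycosyltransferase Colgalt2 by 0.24, a call that was lost with a trended robust prior (adjusted p = 0.0702) and with centred arrays (0.0525). The other risers were Plod1, Loxl1 and P4hb, of which Plod1 and P4hb lost the call with the replicate block (adjusted p = 0.0583 and 0.0879).

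Those that fell were Pcolce2, an enhancer of carboxy-terminal processing (-1.15, adjusted p = 7.18e-05), the processing protease Tll1 (-1.01, adjusted p = 0.000956), the ER channel gene Tmem38b (-0.47) and the vesicle coat gene Sec23a (-0.30). The common chaperone of collagen, Serpinh1, did not pass, at 12.02 ± 0.13 against 11.99 ± 0.03 (adjusted p = 0.860), nor did P4ha1, which forms prolyl 4-hydroxylase with P4hb (-0.05, adjusted p = 0.805). The number that rose was 5 in the fits without knockout-labelled replicate 1 or 3 and without wildtype replicate 1, 2 or 4.

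Of 11 measured collagen receptors 3 rose, 0 fell and 8 did not pass, with a median log2 fold change of 0.20. That is 27.3% higher and 0% lower, against 7.84% and 11.7% of all genes. Mrc2, the endocytic receptor that takes up collagen fragments, rose from 8.48 ± 0.11 to 9.24 ± 0.14 (adjusted p = 0.000296). The receptor kinase Ddr2, which binds fibrillar collagen, rose from 7.79 ± 0.08 to 8.51 ± 0.33 (adjusted p = 0.00675). Lair1, a leukocyte receptor, rose by 0.40, from 4.39 ± 0.15 to 4.79 ± 0.12 (adjusted p = 0.0131), a low level at percentile 17.5 of all genes. Ddr1, the epithelial relative of Ddr2, did not pass, at 11.32 ± 0.10 against 11.47 ± 0.07 (adjusted p = 0.182), nor did the integrin genes Itga1, Itga2, Itga10 and Itgb1. Without knockout-labelled replicate 2 the number that rose was 5.

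Of 16 fibril partners 5 rose, 1 fell and 10 did not pass, with a median of 0.16. That is 31.25% higher and 6.25% lower, against 7.84% and 11.7% of all genes. Besides the small proteoglycans Fmod (2.26, adjusted p = 8.70e-06), Lum (0.53) and Dcn (1.29), the risers were Bgn (0.52, adjusted p = 0.00176) and fibronectin, Fn1 (0.67, adjusted p = 0.00449). Podn, another small proteoglycan, fell by 0.52 (adjusted p = 0.00463). Lum and Dcn also count among the mesenchymal markers above.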

How the data were processed

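The deposited table holds, for each of the 8 arrays, RMA log2 levels of every probe set, as the submitters' processing notes name the method. RMA equalises the distributions of the arrays and compresses differences of very bright and dim probe sets. No source used here gives its software. Detection calls are not analysed here, so low signal and background cannot be separated. No sequencing depth applies, and the number of arrays limits precision. Levels of different probe sets are not compared.

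Of 45101 probe sets 34945 had 1 gene in the platform annotation, 932 several and 9160 none listed. Knockout-labelled and wildtype arrays were compared with limma 3.58.1 in R 4.3.3 (lmFit, eBayes, genotype as the only term, two-sided). Values are means ± SD over 4 arrays. Each limma p-value weighs the difference of the groups against the spread between arrays within them, moderated by the spread over all genes. The script was tested on simulated data. Chain pairs were compared with exact permutation tests over 70 assignments.

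Replicate numbers were shared between groups. Same-numbered arrays deviated together, at correlations across genes of 0.131, 0.232, 0.160 and 0.223, each above the limit of 0.1 set for pairing. Arrays of different numbers correlated between -0.296 and 0.294, and 2 such pairs were also above 0.1. Replicate 3 of the knockout-labelled group correlated best with wildtype replicate 4 (0.294), so the pairing is weakly borne out, and no label ties a number to a litter. A blocked fit on that number was run beside the unblocked one, as an alternative. The main adjusted p-values come from the unblocked fit, and the permutations of the chain pairs also ignored the replicate number. Further alternatives were a trended robust prior, array weights, the mean of probe sets, other normalizations, other thresholds and leaving out each array. Others left out dim genes, or probe sets with the suffix x, s or a. The fit over all probe sets was added after seeing the data.

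All called members are named, and values in every array are given for called members past 0.5 log2 units, for the brightest 3 and for the called member with the smallest p of each class. Array values given for Col2a1, Col4a5, Col9a1, Col12a1, Col14a1, Col8a2 and the cartilage markers were chosen after their values were seen. The members and lists were chosen with earlier results of these data known. List genes without a match are not analysed here. Of the wider marker lists, 7 meningeal genes gave 3 higher and 2 lower, 6 of Schwann cells 0 and 0 and 12 of neurons 0 and 0, while 7 erythroid genes gave 0 higher and 1 lower and 8 of skeletal muscle 0 and 0, at adjusted p under 0.05 with limma. Over all genes 7.84% were higher and 11.7% lower.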

Additional observations from a re-analysis of the deposited data

Results flagged for a closer look

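In 130 groups of 4 arrays examined, 5 held an array far from the rest of its group, where chance flags about 1 group in 20. Col2a1 was high in wildtype replicate 1, at 9.79 log2 units against 9.49 to 9.53. Col4a6 was high in knockout-labelled replicate 1, at 7.78 against 7.36 to 7.43. P3h3 was low in wildtype replicate 3, at 7.96 against 8.17 to 8.20. Bgn was high in wildtype replicate 2, at 10.65 against 10.49 to 10.50. Fn1 was low in knockout-labelled replicate 2, at 11.24 against 11.73 to 11.82.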

How the results depend on the processing

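Of the 22 collagen genes called, 18 kept the call in all 8 fits without 1 array, 13 higher and all 5 lower. The other 4, Col1a1, Col4a1, Col11a2 and Col16a1, lost it in at least 1, and 5 further members gained it in at least 1. The number that rose lay between 13 and 20 in those fits and the number that fell between 5 and 6. The median log2 fold change lay between 0.22 and 0.30 there, and between 0.16 and 0.42 over the other alternatives.

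With the replicate block 17 members rose and 5 fell, and 20 members were called in both fits. It removed Col4a1 and Col16a1 and added Col2a1 and Col5a3. A fold minimum of 1.5 left 10 members that rose, 3 higher and 2 lower processing genes, and 3 higher and 0 lower fibril partners, and Otx2, at 0.47, did not reach it. Leaving out dim genes left 3 members that fell and 0 fibril partners that fell, since those genes were not tested. At an adjusted p under 0.01, 4 processing genes were higher. They numbered 5 to 13 without 1 array. Receptors that rose numbered 5 with array weights and 3 to 5 without 1 array. With probe sets of suffix x, s or a left out, 1 receptor fell. Fibril partners that fell numbered 1 to 2 without 1 array.

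Members that did not pass changed sign in some fits, and none passed there. Col19a1 was at -0.030 with array weights, -0.026 with centred arrays and -0.020 with quantile normalization, and at -0.083 to 0.062 without 1 array. With the mean of probe sets Col23a1 was at 0.092 and Col25a1 at 0.041. Without 1 array the ranges were -0.0059 to 0.11 for Col10a1, -0.42 to 0.34 for Col12a1, -0.16 to 0.045 for Col20a1, -0.080 to 0.080 for Col25a1, -0.019 to 0.12 for Col4a6 and -0.18 to 0.82 for Col9a1. The cause was not tested.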
